A study of Mus musculus with 6 samples.

Results

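Desmosomes are the adhesive plaques that bind epithelial cells to each other and anchor their keratin filaments, and 10 of their genes were followed here in the newborn mouse tooth. The members were the rows of the deposited count table whose symbol is Dsg2, Dsg3, Dsc2, Dsc3, Jup, Pkp1, Pkp2, Pkp3, Dsp or Perp. All 10 were found among the 24959 genes of the table, and all 10 had enough reads to be tested. RNA came from samples labelled as dental epithelial cells at postnatal day 0, in 3 control libraries of wild type genotype and 3 libraries from Pkm cKO mice. A cKO is a conditional knockout, and Pkm encodes the M-type pyruvate kinases of the last step of glycolysis. The Cre driver, the deleted part of Pkm, the strain, and whether a sample was 1 animal or a pool were not stated in the sources used here. The p-values therefore cover the variation among these samples alone, which may be partly technical.

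In a desmosome, the extracellular parts of desmogleins (Dsg genes) and desmocollins (Dsc genes), which are cadherins, join neighbouring cells. Inside the cell their tails bind plakoglobin (Jup) and the plakophilins (Pkp genes), and desmoplakin (Dsp) links this plaque to keratins. Perp is a small membrane protein of desmosomes whose gene is a target of the transcription factors p63 and p53, and mice without Perp have defective enamel. In the tooth, desmosomes hold the stratum intermedium and the ameloblast layer together while the enamel-secreting cells differentiate.

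Total counts were 30588350 to 39415700 per library, and the 10 genes together took 0.489% to 0.51% of them in controls and 0.438% to 0.589% in cKO libraries. Pkm stood at 1049 to 1281 CPM (reads of a gene per 1000000 reads of its library, with library sizes scaled by the TMM method) in controls and at 309 to 395 CPM in cKO libraries, so the targeted gene matched the labels in all 6. The cKO libraries resembled each other less (r = 0.944 to 0.966 of log2 CPM across genes) than the controls did (0.981 to 0.986), and Pkm cKO replicate 3 stood apart on the first principal component. Epithelial markers were abundant in every library, such as the basal keratin gene Krt5 at 4688 to 7552 CPM. Mesenchymal RNA was abundant beside them, with the collagen gene Col1a1 at 9097 to 27446 CPM.

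Pkm cKO replicate 3 also held transcripts of stratified surface epithelium, the kind that lines the mouth and skin. Of 12 tested markers of that tissue, all 12 were highest in this library, although edgeR called 0 of them (4 at an unadjusted p under 0.05) and limma-voom 0. DESeq2 called 1 (Sprr1a), but it gave no p-value for Krt1, Krt4, Krt13, Lor, Krtdap or Calml3, so it did not test these. The sum of the markers over 14 listed genes found in the table was 244 to 332 CPM among controls, against 246, 563 and 6142 CPM in cKO replicates 1 to 3. Krt13, a keratin of oral mucosa, stood at 0.218 to 1.32 CPM among controls, against 4.55, 18.3 and 2831 CPM in cKO replicates 1 to 3. Muscle markers summed to 4.72 to 6.89 CPM among controls, against 82.4, 19.2 and 3240 CPM in cKO replicates 1 to 3. All 7 tested muscle markers were higher in every cKO library than in every control, and edgeR called 2 of them without replicate 3 (Myh8 and Ckm). Surface epithelium is itself rich in desmosomes, so the fold change of each member is given with and without this library, and the part of this tissue in the differences was not tested.

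No desmosome gene passed the test between cKO and control. Of the 10 members, 0 reached an adjusted p of under 0.05 in edgeR's quasi-likelihood test, with Benjamini-Hochberg adjustment over 15930 tested genes, where 0.552% of all tested genes did. DESeq2 and limma-voom also called 0. At an unadjusted p under 0.05 there was 1 member, Dsg2, with each of the 3 tools, against 17.5% of all tested genes with edgeR. The groups did not overlap for 1 of 10 members, again Dsg2, against 23.3% of all tested genes. Of the log2 fold changes (cKO minus control), 6 lay above 0 and 4 below, with a median of 0.16 beside 0.0068 for all tested genes. Without Pkm cKO replicate 3 the median was -0.03, and 0 members passed. In that fit 1 was at an unadjusted p under 0.05 (Dsc3), against 2980 of 16230 tested genes. Without Pkm cKO replicate 1 the median was 0.35, and 0 members passed. In that fit 4 were at an unadjusted p under 0.05, against 3620 of 16330 tested genes. Of these, Dsc2, Jup and Pkp1 lay above 0 and Perp below. In bulk tissue, fewer cells of a type and less RNA per cell cannot be told apart.

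**Figure D1:**
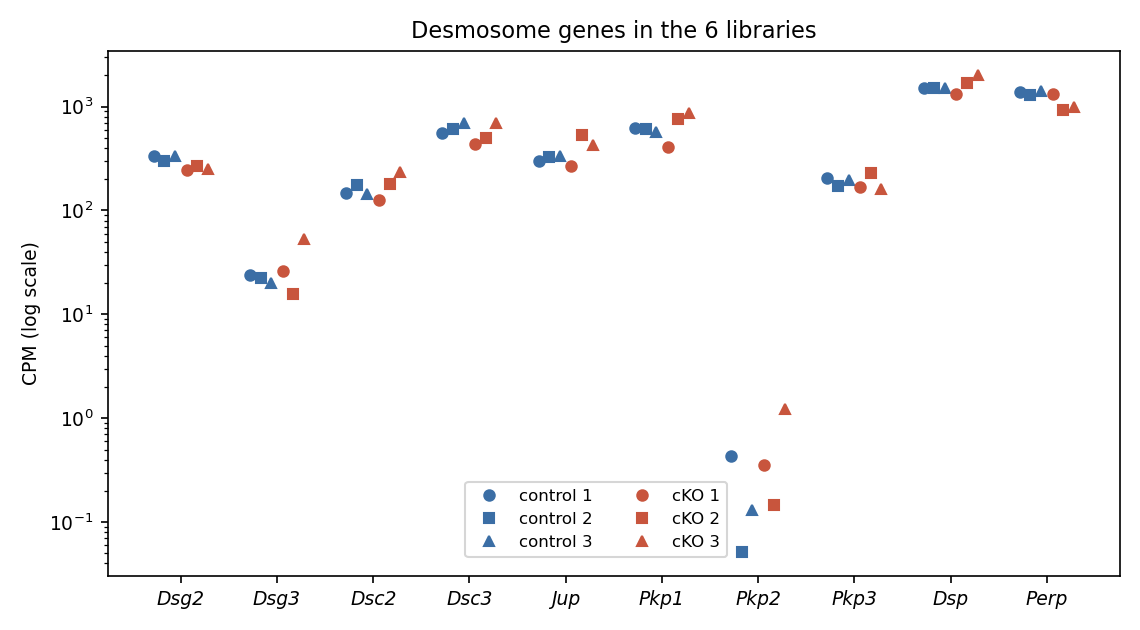
Level of each desmosome gene in CPM on a log axis, with 1 point per library (blue controls, red Pkm cKO, symbols for replicates 1 to 3). Pkp2 lies far under the other 9 genes, and Dsg2 is the 1 gene whose red points all lie under its blue points.

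Within the controls the order of levels per length of transcript ran from Perp to Pkp2. On the scale of CPM per kilobase of annotated exon, Perp stood at 701 ± 29.9 (SD, n = 3), Dsp at 158 ± 0.661, Pkp1 at 128 ± 5.55, Dsc3 at 116 ± 13.1 and Jup at 99.2 ± 4.73. Pkp3 followed at 62.2 ± 5.75, Dsg2 at 39.2 ± 2.59, Dsc2 at 33.5 ± 3.74 and Dsg3 at 3.16 ± 0.282. Pkp2 closed the order at 0.0705 ± 0.0695. Neighbours in this order whose control ranges overlapped were Pkp1 with Dsc3 and Dsg2 with Dsc2, so these pairs are not ordered by these libraries. With the longest transcript as the length, the order was the same, although Dsg2 then stood at 56.2. In cKO replicates 1 to 3 Jup stood at 84.1, 166 and 132, and Dsc3 at 82, 94.1 and 129. Jup was above Dsc3 in all 3, the reverse of the 3 controls, but the 2 were nearly level in replicates 1 and 3. Their cKO ranges overlapped, so this pair is not ordered by the cKO libraries.

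Among the cadherins, desmoglein 2 (Dsg2), the desmoglein found most widely across epithelia, stood lower in every cKO library. Its level was 336, 299 and 337 CPM in control replicates 1 to 3 and 245, 270 and 253 CPM in cKO replicates 1 to 3. The lowest control lay above the highest cKO library. The means were 324 ± 21.4 and 256 ± 13.0 CPM (SD, n = 3 each), which is a log2 fold change of -0.34 (SE 0.136, edgeR adjusted p 0.241), which did not pass. Its 95% interval ran from -0.64 to -0.04, and without Pkm cKO replicate 3 the value was -0.32. The coefficient of variation of Dsg2 was 5.08% in cKO libraries and 6.61% in controls.

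Desmoglein 3 (Dsg3), the desmoglein of basal cells in stratified epithelium and the antigen of pemphigus vulgaris, was scarce in this tissue. It stood at 23.7, 22.5 and 19.9 CPM among controls, against 26.3, 15.6 and 53 CPM in cKO replicates 1 to 3. The cKO libraries lay on both sides of the controls, and replicate 3, which held the surface epithelium markers, was the highest of the 6. The log2 fold change of 0.52 (SE 0.394, edgeR adjusted p 0.54) became -0.06 without that library. Dsg3 reads per Dsg2 read numbered 0.0589 to 0.0753 in controls and 0.107, 0.0577 and 0.209 in cKO replicates 1 to 3, so these overlapped as well.

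Per kilobase, the higher of the desmocollins was Dsc3, which accompanies Dsg3 in basal layers of stratified epithelia. Dsc3 stood at 555, 609 and 694 CPM among controls, against 437, 502 and 690 CPM in cKO replicates 1 to 3. The first 2 cKO libraries lay under all controls, and replicate 3 lay within them. The log2 fold change was -0.19 (SE 0.19, edgeR adjusted p 0.647), and -0.39 without Pkm cKO replicate 3 (edgeR adjusted p 0.24). It was -0.06 without Pkm cKO replicate 1 and -0.10 without control replicate 3. Dsc2, the widely expressed desmocollin, stood at 147, 175 and 143 CPM among controls, against 125, 180 and 234 CPM in cKO replicates 1 to 3. Its cKO libraries enclosed the control range, and the log2 fold change of 0.21 (SE 0.216, edgeR adjusted p 0.658) was -0.02 without replicate 3.

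Plakoglobin, the product of Jup, is the armadillo protein shared by desmosomes and adherens junctions. Jup stood at 302, 324 and 332 CPM among controls, against 271, 534 and 425 CPM in cKO replicates 1 to 3. Replicates 2 and 3 lay above all controls and replicate 1 lay under them. The log2 fold change of 0.36 (SE 0.222, edgeR adjusted p 0.441) was the highest after those of the scarce Pkp2 and Dsg3. It was 0.34 without Pkm cKO replicate 3 (edgeR adjusted p 0.487), but 0.13 without replicate 2 (edgeR adjusted p 0.812). Without replicate 1 it was 0.58, with an edgeR adjusted p of 0.0782, the lowest of any member in any of the alternatives run.

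Among the plakophilins, Pkp1, which is needed for strong adhesion of stratified epithelia, stood at 618, 609 and 569 CPM among controls, against 405, 759 and 871 CPM in cKO replicates 1 to 3. The cKO libraries again lay on both sides of a narrow control range, with a log2 fold change of 0.18 (SE 0.248, edgeR adjusted p 0.755) that was -0.03 without replicate 3. Pkp3, the plakophilin found in most simple and stratified epithelia, stood at 205, 171 and 195 CPM among controls, against 169, 232 and 161 CPM in cKO replicates 1 to 3. The means were 191 ± 17.6 and 187 ± 39.0 CPM (log2 fold change -0.02 with SE 0.174, edgeR adjusted p 0.96). Its 95% interval of -0.41 to 0.36 bounds a difference at 0.752-fold to 1.29-fold, and the value was 0.08 without replicate 3.

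Pkp2, the plakophilin of heart muscle and simple epithelia, was close to absent. It had 16, 2 and 5 reads in controls and 11, 5 and 49 reads in cKO replicates 1 to 3, or at most 1.22 CPM. The library with 49 reads was the one with the muscle and surface epithelium markers. The log2 fold change of 1.49 (SE 0.926, edgeR adjusted p 0.446) was 0.29 without that library and 2.62 without control replicate 1 (edgeR adjusted p 0.512). Its 95% interval of -0.58 to 3.55 shows how little these counts can resolve.

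Desmoplakin, the plakin that carries the link to keratin, was the member with the smallest spread among controls. Dsp stood at 1509, 1521 and 1512 CPM in controls, a coefficient of variation of 0.419%, and at 1318, 1681 and 2032 CPM in cKO replicates 1 to 3. The cKO libraries lay under, above and further above the controls. The log2 fold change was 0.15 (SE 0.174, edgeR adjusted p 0.705), with a 95% interval of 0.847-fold to 1.45-fold, and it was -0.01 without replicate 3.

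Perp stood at 1384, 1304 and 1417 CPM among controls, against 1327, 931 and 992 CPM in cKO replicates 1 to 3. Replicates 2 and 3 lay under all controls, and replicate 1 lay within them. The means were 1368 ± 58.4 and 1083 ± 213 CPM (log2 fold change -0.34 with SE 0.167, edgeR adjusted p 0.332), with a 95% interval of 0.612-fold to 1.02-fold. Without replicate 3 the value was -0.26, and without replicate 1 it was -0.51 (edgeR adjusted p 0.0999). Perp thus stood low in the same replicates in which Jup stood high. Perp per Dsp, both in CPM, was 0.857 to 0.937 in controls and 1.01, 0.554 and 0.488 in cKO replicates 1 to 3. Replicate 1 lay above the controls and the others lay under them.

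**Figure D2:**
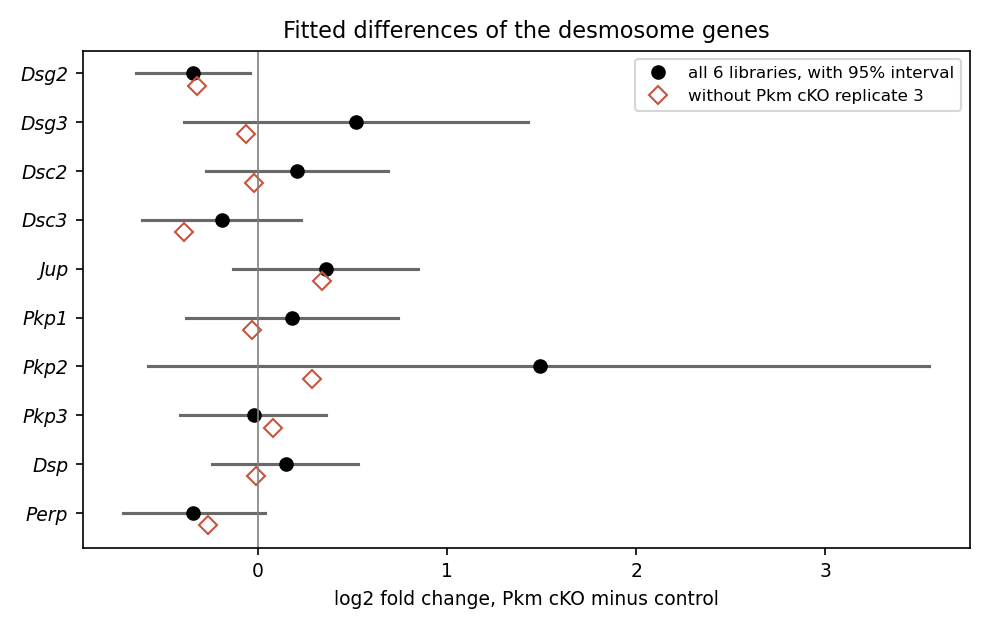
Fitted log2 fold change of each desmosome gene, cKO minus control, with its 95% interval from all 6 libraries (black) and the value without Pkm cKO replicate 3 (open red diamonds). All intervals except that of Dsg2 include 0, and the diamonds of Dsg3, Dsc2, Pkp1 and Dsp lie within 0.06 of 0.

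The SD among cKO libraries was larger than among controls for 9 of 10 members, all except Dsg2. The share of all tested genes with a larger SD was not computed. Across all genes, too, the cKO libraries resembled each other less (r = 0.944 to 0.966) than the controls did (0.981 to 0.986). For Pkp2 the coefficient of variation was nearly level, at 98.6% in controls and 99.2% in cKO libraries. Leaving Pkp2 aside, the coefficients of variation were 0.419% to 11.3% among controls and 5.08% to 61.0% in cKO libraries. Of these 9 members, 8 had their cKO replicate 1 value under the control mean, 4 their replicate 2 value and 3 their replicate 3 value. Replicate 3 was the highest of all 6 libraries for 4 of the 9, namely Dsc2, Dsg3, Dsp and Pkp1. Jup, Pkp3 and Dsg2 were highest among the cKO libraries in replicate 2, where the surface epithelium sum was 563 CPM. Summed over the 10 members, the libraries held 5081, 5035 and 5220 CPM among controls, against 4323, 5105 and 5712 CPM in cKO replicates 1 to 3. The mean of the cKO sums was 0.987 times that of the controls, and 0.922 times without replicate 3.

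**Figure D3:**
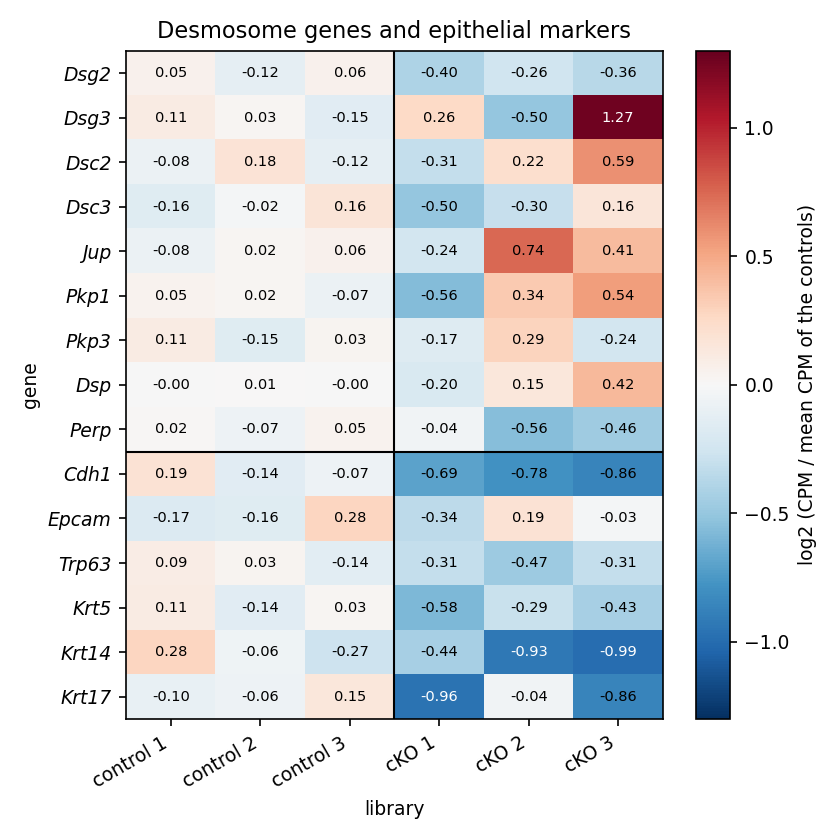
Level of 9 desmosome genes (above the line, Pkp2 left out) and 6 epithelial markers (below it) in each library, as log2 of CPM over the mean CPM of the controls. Among the desmosome genes, Dsg2 and Perp are under 0 in all 3 cKO columns, and the others lie on both sides of 0. Among the markers, Cdh1, Trp63, Krt5, Krt14 and Krt17 are under 0 in all 3, and Epcam lies on both sides.

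The relatives of these genes followed by list were the desmosomal cadherins of differentiated layers and plakophilin 4. Of 5 tested (6 listed), edgeR called 0, with 0 at an unadjusted p under 0.05, and DESeq2 and limma-voom called 0 as well. DESeq2 gave no adjusted p for Dsc1 or Dsg1c. Pkp4, a plakophilin relative found at several kinds of junction, stood at 134, 123 and 121 CPM among controls, against 125, 143 and 159 CPM in cKO replicates 1 to 3 (log2 fold change 0.18 with SE 0.146, edgeR adjusted p 0.565). Its control level was 26.4 CPM per kilobase. In the RefSeq annotation (GRCm38.p6, used here for order only) the 9 desmosomal cadherin genes are neighbours on 1 chromosome, with 0 other protein-coding genes among them, in the order Dsc3, Dsc2, Dsc1, Dsg1c, Dsg1a, Dsg1b, Dsg4, Dsg3 and Dsg2. Along this order the mean control level was 619, 155, 0.298, 0.367, 70.3, 33.1, 0.0437, 22.0 and 324 CPM. Per kilobase of exon, Dsc3 at 116 stood highest, followed by Dsg2 at 39.2 and Dsc2 at 33.5, then Dsg1a at 12.4, Dsg1b at 8.34 and Dsg3 at 3.16, while Dsc1, Dsg1c and Dsg4 were close to absent. Dsc1, a desmocollin of the upper epidermis, reached 8.81 CPM in Pkm cKO replicate 3 against 0.233 to 0.388 CPM in the other 5 libraries.

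Dsg1a, a desmoglein of differentiating layers, stood at 71.9, 83.4 and 55.6 CPM among controls, against 30.7, 27.8 and 71.0 CPM in cKO replicates 1 to 3. It did not pass with all libraries (log2 fold change -0.70 with SE 0.367, edgeR adjusted p 0.371). Without Pkm cKO replicate 3 it passed, at -1.26 (edgeR adjusted p 0.0366). Its neighbour Dsg1b stood at 29.0 to 35.7 CPM among controls, against 15.3, 21.7 and 37.7 CPM in cKO replicates 1 to 3 (log2 fold change -0.41 with SE 0.297), and at -0.83 without replicate 3 (edgeR adjusted p 0.0971). Replicates 1 and 2 were under the controls for both genes, and replicate 3 was within or above them. Reads of the Dsg1 genes, whose sequences are nearly the same, could be assigned to the wrong copy.

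Among 11 partners of the desmosome (plakins, nectins, sheddases and others), edgeR called 0, with 2 at an unadjusted p under 0.05, and DESeq2 and limma-voom called 0. DESeq2 gave no p-value for Cdsn. Plec, the cytolinker plectin, stood at 340 ± 51.6 and 397 ± 26.1 CPM (log2 fold change 0.22 with SE 0.155). Adam10, a protease that sheds Dsg2 and other cadherins, stood at 229 to 262 CPM among controls, against 182 to 205 CPM in cKO libraries (log2 fold change -0.35 with SE 0.137, edgeR adjusted p 0.233). Cdsn, which encodes corneodesmosin of the cornified layer, stood at 0.0545 to 0.155 CPM among controls, against 0.678, 0.581 and 15.4 CPM in cKO replicates 1 to 3, so every cKO library lay above every control. Its log2 fold change of 5.57 (edgeR adjusted p 0.185) was 2.44 without replicate 3 (edgeR adjusted p 0.136). In the deposited annotation, 25 genes carried the cellular term desmosome, 9 of the 10 members (all but Perp) among them. Of the 24 tested, edgeR called 0 (3 at an unadjusted p under 0.05), limma-voom 0 and DESeq2 1, the junctional adhesion gene Jam3. Among them, DESeq2 gave no adjusted p for Cdsn, Dsc1 or Dsg1c. The median log2 fold change of the 24 was 0.16 with the members included, and 0.07 for the 15 that are not members.

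Of 10 tested keratins, the filaments that desmosomes anchor, 4 stood lower in every cKO library than in every control, where groups did not overlap for 23.3% of all tested genes. The log2 fold change was above 0 for 4 of the 10 and below 0 for 6. Of the 10, edgeR called 0 (4 at an unadjusted p under 0.05, all 4 below 0), limma-voom 0 and DESeq2 1, Krt14. DESeq2 gave no p-value for Krt15. The median log2 fold change of the 10 was -0.32. Krt14, a basal keratin, stood at 3281, 2596 and 2243 CPM among controls, against 2002, 1423 and 1362 CPM in cKO replicates 1 to 3. All cKO libraries lay under all controls, with a log2 fold change of -0.76 (SE 0.202, edgeR adjusted p 0.108 and DESeq2 adjusted p 0.0205). Without Pkm cKO replicate 3 the value was -0.65 (edgeR adjusted p 0.174), and without replicate 1 it was -0.96 (edgeR adjusted p 0.0349). In that last setting Krt19 (2.01) and Krt6a (2.10), keratins of other epithelial layers, also passed but were higher (edgeR adjusted p 0.0134 each). Krt19 stood at 4.22 to 7.33 CPM among controls, against 2.75, 22.8 and 23.3 CPM in cKO replicates 1 to 3. Krt6a, which is also on the surface epithelium list, stood at 101 to 129 CPM among controls, against 98.1, 342 and 676 CPM. Krt5 (-0.43, SE 0.151, edgeR adjusted p 0.189), like Krt14, had groups that did not overlap. Krt15, a basal keratin of stratified epithelia, stood at 850 CPM in Pkm cKO replicate 3 and at 16.6 to 40.1 CPM elsewhere.

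Cdh1, which encodes E-cadherin of the adherens junction, stood at 1280, 1017 and 1071 CPM among controls, against 694, 652 and 619 CPM in cKO replicates 1 to 3. All cKO libraries lay under all controls, with a log2 fold change of -0.78 (SE 0.149) and an edgeR adjusted p of 0.0538, just outside the threshold. Cdh1 passed with DESeq2 (adjusted p 0.000578) and in edgeR without Pkm cKO replicate 1 (0.0358). In edgeR it also passed with no filter beyond 1 read (0.00959) and with a replicate block (0.0334). It did not pass with limma-voom (adjusted p 0.073). In edgeR it did not pass without robust estimation (0.0774) or without control replicates 1, 2 or 3 (0.3, 0.211 and 0.178). Without Pkm cKO replicate 3 it stood at -0.73 (edgeR adjusted p 0.0765). Epcam, a general epithelial adhesion molecule, stood at 258 ± 48.5 and 249 ± 44.7 CPM (log2 fold change -0.05 with SE 0.187). Of all 15 epithelial markers, edgeR called 0 (7 at an unadjusted p under 0.05), limma-voom 0 and DESeq2 2 (Cdh1 and Krt14), and 10 of 15 lay below 0.

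Set against these markers within the same library, the sum of the 10 desmosome genes gave different answers with different references. Per the sum of the 15 epithelial markers it was 0.299, 0.341 and 0.336 in controls and 0.401, 0.405 and 0.544 in cKO replicates 1 to 3, so that every cKO library lay above every control. The cKO mean was 1.38 times the control mean, and 1.24 times without replicate 3. Krt5, Krt14, Krt17 and Cdh1 made up 79.4% to 83.9% of that reference. With the other 11 markers as the reference, the ratio was 1.85, 1.94 and 2.07 in controls and 1.95, 1.99 and 2.82 in cKO replicates 1 to 3, and the groups overlapped (1.15 times the control mean, and 1.01 times without replicate 3). With Epcam alone it was 22.3, 21.8 and 16.7 against 21.3, 17.4 and 22.7, and the groups overlapped too.

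**Figure D4:**
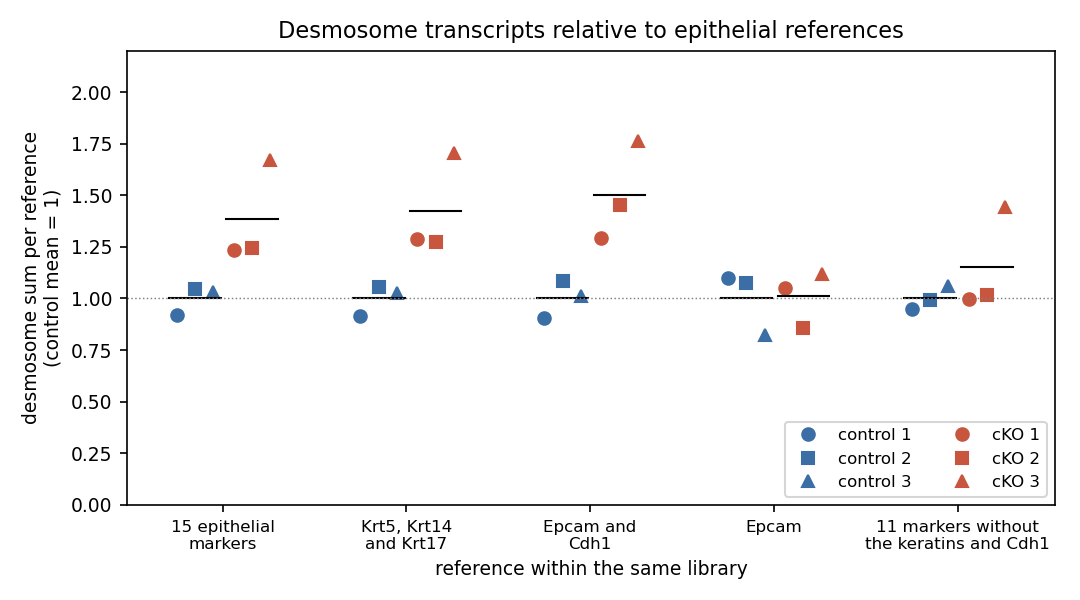
Summed CPM of the 10 desmosome genes divided by 5 epithelial references of the same library, scaled to a control mean of 1 (points are libraries, black bars are group means). The cKO points lie above all controls with the 3 references dominated by keratins or Cdh1. With Epcam alone, and with the markers left without the keratins and Cdh1, the groups overlap and cKO replicate 3 is the highest point.

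Regulators of epithelial adhesion genes were followed as a list of 18. EdgeR called 0 of them (7 at an unadjusted p under 0.05), limma-voom 0 and DESeq2 3, Zfp750, Zeb2 and Twist1. Of the 18, 10 lay above 0 and 8 below. Trp63, which encodes p63, stood at 496, 476 and 423 CPM among controls, against 375, 335 and 375 CPM in cKO replicates 1 to 3. All cKO libraries lay under all controls (log2 fold change -0.36 with SE 0.141, edgeR adjusted p 0.227). Perp per Trp63, both in CPM, ranged from 2.74 to 3.35 among controls and from 2.65 to 3.54 in cKO libraries, and these ranges overlapped. Trp53, which encodes p53, stood at 76.6 to 87.8 CPM among controls, against 101 to 141 CPM in cKO libraries (log2 fold change 0.49 with SE 0.169, edgeR adjusted p 0.18).

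Of 12 other p53 targets edgeR, DESeq2 and limma-voom called 0, with 0 at an unadjusted p under 0.05 in each, and 5 of 12 lay above 0. Cdkn1a, the cell cycle inhibitor p21, stood at 646 ± 155 and 446 ± 259 CPM. Twist1, a mesenchymal factor that represses Cdh1 in epithelial cells, stood at 9.61 to 14.7 CPM among controls, against 20.7 to 37.5 CPM in cKO libraries (log2 fold change 1.12 with SE 0.268, edgeR adjusted p 0.0889). Snai1, another repressor of Cdh1, stood at 10.9 ± 2.92 and 18.0 ± 1.48 CPM (log2 fold change 0.72 with SE 0.235, edgeR adjusted p 0.164). Snai2 of the same list went the other way, at 48.4 ± 4.79 and 41.1 ± 7.56 CPM (log2 fold change -0.24 with SE 0.181, edgeR adjusted p 0.542). Twist1 and Snai1 are also made by dental mesenchyme, and Twist1 is on the mesenchyme list as well. The 14 mesenchyme markers had a median log2 fold change of 0.71 with 0 called by edgeR (10 at an unadjusted p under 0.05), 7 by DESeq2 and 0 by limma-voom, and they summed to 20185 to 31815 CPM among controls, against 19401 to 40971 CPM in cKO libraries. Without Pkm cKO replicate 3, edgeR called 0 of the partners, keratins, epithelial markers, regulators and p53 targets, as with all libraries, and 1 of the mesenchyme markers, the collagen gene Col3a1 (log2 fold change 1.01, edgeR adjusted p 0.0413). The part of mesenchyme in these differences was not tested.

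Other layers of the tooth that carry desmosomes were measured by their own markers. Of 5 stratum intermedium markers edgeR, DESeq2 and limma-voom called 0, with 0 at an unadjusted p under 0.05 in each. Alpl, the alkaline phosphatase of that layer, stood at 785 to 940 CPM among controls, against 837, 892 and 515 CPM in cKO replicates 1 to 3. All 10 ameloblast markers lay below 0, with a median of -2.22, and 9 of 10 had groups that did not overlap. EdgeR called 1 of them, Odam, a secreted protein of ameloblasts and junctional epithelium (log2 fold change -1.23 with SE 0.155, edgeR adjusted p 0.0312), DESeq2 called 4 and limma-voom 0. For the 10 desmosome genes the corresponding counts were 1 with groups apart and 0 called by each tool. Over all tested genes the groups were apart for 23.3%, and edgeR called 0.552%. The desmosome counts therefore do not set these 10 apart from other genes. Of markers of other cells, edgeR called 0 of 10 endothelial, 0 of 5 odontoblast, 0 of 7 nerve and glia and 0 of 7 muscle genes (0, 1, 5 and 5 at an unadjusted p under 0.05). DESeq2 called 0, 1, 4 and 4 of them, and limma-voom 0 of each. DESeq2 gave no p-value for the muscle genes Ckm, Myh3 and Myh8. EdgeR called 1 of 9 immune genes, C1qc, which was higher in cKO, and 3 of 6 erythroid genes, the globins Hbb-bt, Hbb-bs and Hba-a1, which were lower in cKO. DESeq2 called 7 immune and 5 erythroid genes, and limma-voom 0 of each. The part of these cells in the levels of the desmosome genes was not tested.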

How the data were processed

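Whole-number read counts per gene were deposited by the authors as 1 table of 6 libraries. Reads were processed with fastp and HISAT2 on build mm39, per the submitters' processing notes. The versions, counting program, strand setting and annotation were not given in the sources used here. Genes that overlap others on the opposite strand are therefore uncertain. The labels call the samples biological replicates.

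The counts were fitted with edgeR 4.0.16 (R 4.3.3) in its quasi-likelihood test with robust estimation, TMM scaling and the filterByExpr filter, without covariates. P-values were two-sided and were adjusted by the Benjamini-Hochberg method over all 15930 tested genes, with a threshold of 0.05. Standard errors are the fold change over the root of F, and 95% intervals use the fitted degrees of freedom. CPM values use TMM-scaled library sizes. Ratios and sums were formed from CPM within a library and carry no test. Lengths are exon lengths of the GENCODE M21 models (GRCm38), and no coordinates were taken from them. The fit was tested on simulated data. No 2 libraries agreed within sampling noise.

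The alternatives were DESeq2 1.42.0, limma-voom (limma 3.58.1), other scalings and filters, a replicate block, and leaving out each library. Same-numbered libraries were not used as pairs, because the labels give no shared litter or day. The members and gene lists were chosen with earlier results of these data known, and lists are described by counts and medians. The 10 members, the targeted gene, Trp63 and Trp53 were named. From each list, genes past the threshold, up to 4 with the lowest p and up to 4 with the highest mean CPM could be named. Epcam, Krt15, Krt19, Snai2, Jam3, and Zfp750 and Zeb2 where DESeq2 called them, were chosen after their values were seen. Listed genes for which DESeq2 gave no p-value or no adjusted p were named for that reason.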

Additional observations from a re-analysis of the deposited data

How the results depend on the processing

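For the 10 desmosome genes, 131 of 139 fold changes under alternatives kept their direction and none passed the threshold, with adjusted p from 0.0782 to 0.991. The alternatives other than leaving out a library refitted the same samples, so kept directions there say little about stability. The 8 that turned were near 0. Across the fits with 1 library left out, Dsc2 ranged from -0.02 to 0.41, Dsg3 from -0.06 to 0.85 and Dsp from -0.01 to 0.29. Pkp1 ranged from -0.03 to 0.44 and Pkp3 from -0.2 to 0.08, and upper-quartile scaling put Pkp3 at 0.02. For Dsc2, Dsg3, Dsp and Pkp1, the negative value was the one without Pkm cKO replicate 3. Pkp2 was not tested with at least 1 CPM in 3 libraries. The count of called members was 0 throughout. With 0.552% of all tested genes called in the main fit, 0 of 10 says little about stability. With 1 library left out, the median of the members was -0.03 to 0.35. In those fits 0 to 4 members were at an unadjusted edgeR p under 0.05.

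The count of called genes over the whole table depended strongly on the setting. It was 88, against 55 with DESeq2 size factors, 518 with no filter beyond 1 read, 1118 with DESeq2, 2 with limma-voom and 2 without robust estimation. It was 0 to 640 with 1 library left out: 0 without each of the controls, and 640, 186 and 125 without cKO replicates 1, 2 and 3. The cause was not tested. Of the 88 called genes 55 were higher and 33 lower, against 39 and 16 with DESeq2 size factors and 57 and 18 with upper-quartile scaling. With the replicate block 708 genes and 0 members were called. The deviations of same-numbered libraries correlated at 0.235, 0.015 and 0.215. Replicates 1 and 3 correlated best with their own number, and replicate 2 did not. The labels give no shared litter or day, and whether same-numbered samples shared one was not tested.

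The desmosome sum per epithelial reference was 1.38-fold in cKO and 1.24 to 1.46 with 1 library left out. With the 2 other references that were planned, it was 1.5 (Epcam and Cdh1) and 1.42 (Krt5, Krt14 and Krt17). It was 1.01 with Epcam alone and 1.15 without Krt5, Krt14, Krt17 and Cdh1, 2 references chosen after seeing the data.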

Other observations

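The ratio of each member to Cdh1 of the same library depends on Cdh1, which was chosen as the denominator after it was seen to be lower in every cKO library, so higher ratios were largely fixed by that choice and carry no test. Jup per Cdh1 was 0.236, 0.318 and 0.31 in controls and 0.39, 0.819 and 0.687 in cKO replicates 1 to 3. Jup and Cdh1 both serve adherens junctions, in which plakoglobin binds the tail of E-cadherin. Dsg2 per Cdh1 was 0.29 ± 0.0264 and 0.392 ± 0.0344 (SD, n = 3 each), although Dsg2 itself stood lower in CPM. Even with this denominator, the ratios of Dsc3, Pkp1 and Pkp2 overlapped between the groups.

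The makeup of the desmosome transcripts also differed between libraries. Dsp made up 29.0% to 30.2% of the summed CPM of the 10 genes in controls and 30.5%, 32.9% and 35.6% in cKO replicates 1 to 3. Dsg2 made up 5.95% to 6.61% in controls and 5.66%, 5.3% and 4.44% in cKO replicates 1 to 3. Perp made up 25.9% to 27.2% in controls and 30.7%, 18.2% and 17.4% in cKO replicates 1 to 3, so it lay on both sides of the controls. These shares sum to a whole, so a rise in 1 lowers the others. Dsc2 per Dsc3 was 0.206 to 0.287 in controls and 0.285, 0.358 and 0.339 in cKO replicates 1 to 3.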
